A study of Mus musculus with 12 samples.

Results

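Cells that carried Sox9 transcripts but no Amh transcript made up 3170 of the 83513 gonadal cells that were kept, or of the 75181 kept cells below a germ cell gate. A cell entered this class, called Sox9+Amh0 here, when it had at least 1000 detected genes, at most 10% mitochondrial UMIs, at least 2 Sox9 UMIs, 0 Amh UMIs and a sum of Dppa5a, Pou5f1, Ddx4 and Dazl UMIs below 10. A UMI (unique molecular identifier) stands for 1 captured RNA molecule, so PCR copies are counted once. The class was set against Sox9+Amh+ cells (at least 2 UMIs of each gene, 2116 cells) and against Sox9-zero cells (no Sox9 UMI, 64502 cells). Sox9-zero cells hold the other somatic and blood cell types of the gonad. They can also hold supporting cells in which no Sox9 UMI was captured. The Sox9 and Amh counts chose the cells, so their values are described and not tested.

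SOX9 is the transcription factor of the testis pathway. SRY, made from the Y chromosome, acts with NR5A1 to switch it on in supporting cell precursors, and FGF9, prostaglandin D2 made by PTGDS, SOX8 and SOX10 help keep it on. AMH, the hormone that removes the Müllerian ducts, is made by Sertoli cells after SOX9, and SOX9, NR5A1, WT1 and GATA4 act at its promoter. Without SOX9 the supporting cells take the pre-granulosa path, marked by Foxl2, Fst and Wnt4. Sox9 is also used outside the gonad, for example in cartilage precursors, neural crest and ducts.

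Gonads were taken at E12 from XX and XY mouse embryos of a mixed B6CBAF1/JRj background, in 6 groups of 2 libraries each. WT embryos make both splice forms of Wt1. The -KTS KO embryos are homozygous for an allele that leaves only the +KTS form, which carries the amino acids lysine, threonine and serine between its zinc fingers. The +KTS KO embryos are homozygous for an allele that leaves only the -KTS form. The alleles act in every cell, and the counts at the 3' end of transcripts cannot tell the splice forms apart. The labels give more than 1 embryo for each XY -KTS KO library and for replicate 2 of XX -KTS KO, and a single entry for the others.

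The 12 libraries held 108111924 to 147968666 UMIs over all barcodes, and the median kept cell below the germ gate held 10342 to 19197 UMIs. Of 82648 distinct kept barcodes, 857 occurred in more than 1 library, at most 35 in any pair of libraries. They included 63 cells of the class, and 1 barcode was a Sox9+Amh0 cell in both libraries that shared it. The 2 XY +KTS KO libraries differed from each other. In replicate 1, 10 immediate early and heat shock genes summed to 2875 CPM in the class and 2367 CPM in Sox9-zero cells, against 586.5 to 835.2 CPM in the class of the 4 other XY libraries. In replicate 2, the class carried genes of the mesonephric duct, described below. At least 3 UMIs of such genes other than Epcam were found in 12.5% of its cells, against 0% in replicate 1. The -KTS KO classes held such cells too, at 29.6% and 11.55% in XY and 11.85% and 11.9% in XX. CPM, the counts per 1000000, is the UMIs of a gene per 1000000 UMIs summed over the cells of a class in a library. All tests of the class rest on 2 libraries per group. Where the class is compared between genotypes, the p-values measure a spread between libraries that is pooled over the groups of a fit. Where classes of the same libraries are compared, the library is a block. Those p-values, and those of their differences between genotypes, measure how the difference between classes varies from library to library, pooled in the same way. A group with a library left out adds no spread of its own.

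Sox9+Amh0 cells were most frequent in XY WT gonads and present in every library. They made up 9.03% of cells in XY WT replicate 1 (697 cells, exact 95% interval 8.40 to 9.69%) and 17.7% in replicate 2 (938 cells, 16.7 to 18.8%). The XY -KTS KO libraries held 4.02% (223 cells, 3.52 to 4.57%) and 5.18% (277 cells, 4.60 to 5.81%). The XY +KTS KO libraries held 4.935% (347 cells) and 1.41% (112 cells). All 4 XY mutant libraries therefore lay below both XY WT libraries. The XX libraries held at most 2.845%, below 3 of the 4 XY mutant libraries, where XX WT had 0.675% and 2.51%, XX -KTS KO 2.845% and 0.846% and XX +KTS KO 0.796% and 2.47%, or 41 to 168 cells. Within each of the 6 groups the intervals of the 2 libraries did not overlap. The intervals cover counting error only. A cell with more UMIs has more chances to reach 2 Sox9 UMIs, and cells of the class held a median of 10084 and 12914.5 UMIs in XY WT, 16829 and 18797 in XY -KTS KO and, for XY +KTS KO, 13650 and 15943. Restricted to cells of 8000 to 25000 UMIs, the mean share was 13.8% in XY WT, 4.19% in XY -KTS KO and 3.76% in XY +KTS KO.

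Cells of another type also carried Sox9 UMIs, and the part of free RNA or of doublets in them was not tested. Among cells with at least 10 UMIs of 7 endothelial genes, which should lack Sox9, the class took 2.97% (12 of 404 cells, interval 1.54 to 5.13%) and 4.45% (11 of 247, 2.24 to 7.83%) in the XY WT libraries. For XY -KTS KO it took 1.98% and 1.21%, for XY +KTS KO 6.85% (10 of 146) and 0% (0 of 213), and for the XX libraries 0 to 1.79%. These endothelial cells were deeper than the rest, with a median of 15506 and 17391 UMIs in XY WT. At least 1 Amh UMI was found in 7.67% and 7.69% of these cells in XY WT, 0% and 2.41% in XY -KTS KO and, for XY +KTS KO, 6.85% and 1.41%. The XY WT shares lay above the endothelial ones without overlap of the intervals. The XY -KTS KO shares lay above theirs but within their intervals, which reached 6.97 and 6.53%. The share in XY +KTS KO replicate 1 lay below the endothelial share, and in replicate 2 the 0 of 213 cells allows a share of up to 1.41% counted as 3 cells (exact upper limit 1.72%), no lower than that of the class. The XX shares of 0.675 to 2.845% were close to the endothelial shares of 0 to 1.79% and the interval reached 3.59% in XX WT replicate 2, so expression of Sox9 in the XX cells was not detectable from the share alone. In cells with at least 10 UMIs of immune genes, 10 to 33 in each XY WT and XY -KTS KO library, none belonged to the class.

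The class was also defined by its edge. In XY WT, 247 of 697 and 178 of 938 cells sat at exactly 2 Sox9 UMIs, and 272 and 581 had 5 or more, up to 31 and 45. The XY mutants held lower counts, with a mean of 3.85 and 4.17 Sox9 UMIs per cell in XY -KTS KO and, for XY +KTS KO, 4.22 and 3.03, against 4.98 and 8.08 in XY WT. In the XX libraries 25 to 113 cells sat at 2 UMIs, of classes of 41 to 168. Just outside the class, 687 and 497 XY WT cells had 1 Sox9 and no Amh UMI, and 231 and 274 had at least 2 Sox9 and 1 Amh UMI. The XY -KTS KO libraries had 361 and 410 cells with 1 Sox9 UMI, more than the class itself.

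**Figure D1:**
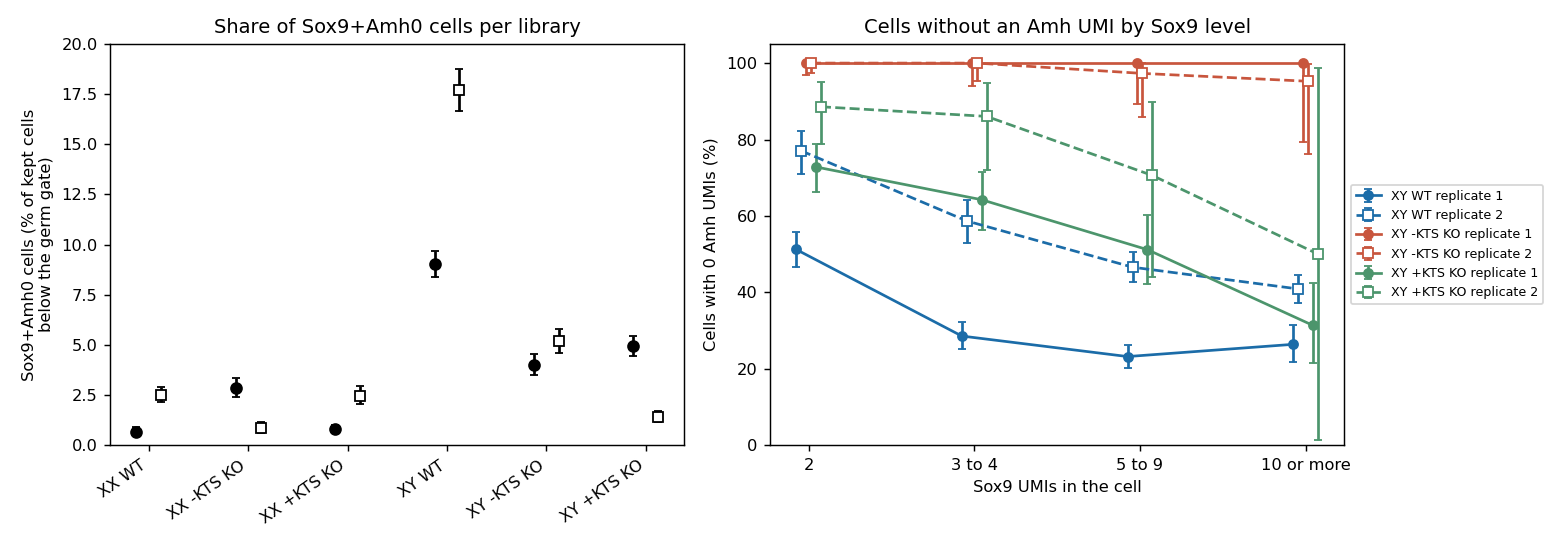
Left, the percentage of kept cells below the germ gate that were Sox9+Amh0 in each of 12 libraries (points, replicate 1 and 2 of each group) with exact 95% binomial intervals (bars). Right, the percentage of cells with 0 Amh UMIs among cells with 2, 3 to 4, 5 to 9 and 10 or more Sox9 UMIs in the 6 XY libraries. The share was 9.03% and 17.7% in XY WT and at most 5.18% elsewhere, and the XY -KTS KO lines stayed at 95.2% or more at every Sox9 level.

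Sox9-positive cells of XY -KTS KO almost all lacked Amh, at every Sox9 level. Of the cells with at least 2 Sox9 UMIs, 31.2% (interval 29.3 to 33.2%) and 50.1% (47.8 to 52.4%) had no Amh UMI in the XY WT libraries. In XY -KTS KO all 223 such cells of replicate 1 and 277 of 279 of replicate 2 had none, so 0 and 2 cells carried a single Amh UMI and no cell carried more. In XY +KTS KO the shares were 59.7% (55.6 to 63.7%) and 84.8% (77.6 to 90.5%), with 138 and 10 cells at 2 or more Amh UMIs. With 3 to 4 Sox9 UMIs, the share without Amh was 28.6% and 58.7% in XY WT, 100% and 100% in XY -KTS KO and, for XY +KTS KO, 64.2% and 86.0%. With 10 or more Sox9 UMIs it was 26.4% and 40.9% in XY WT and 31.3% in XY +KTS KO replicate 1. In XY -KTS KO, 16 of 16 and 20 of 21 cells at this level had no Amh. The Amh-free share was thus lower at 10 or more Sox9 UMIs than at exactly 2, where it was 51.2% and 77.1% in XY WT and 72.8% in XY +KTS KO replicate 1. XY +KTS KO replicate 2 held only 2 cells at 10 or more. In cells of 8000 to 25000 UMIs the shares were 28.4% and 50.4% in XY WT and 60.9% and 85.3% in XY +KTS KO.

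To see where the class stood between Sertoli cells and other cells, a list of 24 Sertoli genes without Sox9 and Amh was summed in each cell. In XY WT the median Sox9+Amh0 cell held 13.0 and 13.9 such UMIs per 10000, with the 10th and 90th percentiles at 0.674 and 59.6 in replicate 1 and at 1.18 and 53.6 in replicate 2. The median was 76.6 and 53.5 in Sox9+Amh+ cells and 1.14 and 0.975 in Sox9-zero cells. The class therefore spanned the whole range between them. Of its cells, 166 of 697 (23.8%) and 300 of 938 (32.0%) reached the 10th percentile of Sox9+Amh+ cells, and 15.8% and 9.17% lay at or below the Sox9-zero median. For XY -KTS KO the median was 2.28 and 0.95 in the class and 0.382 and 0.529 in Sox9-zero cells. In XY +KTS KO it was 5.13 and 1.83 in the class, 1.73 and 1.33 in Sox9-zero cells and 18.1 and 6.74 in Sox9+Amh+ cells.

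**Figure D2:**
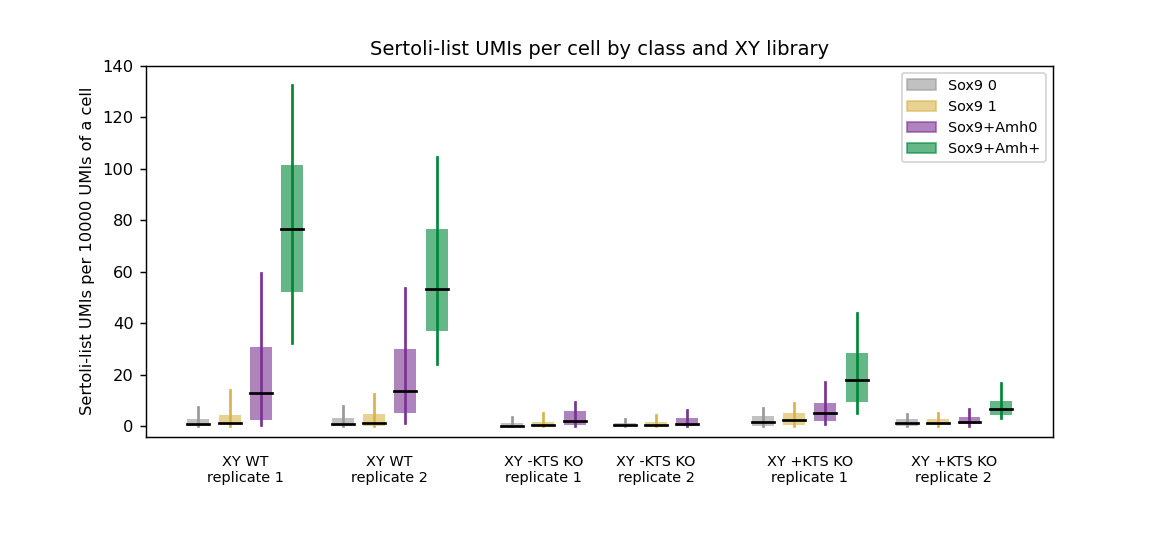
UMIs of 24 Sertoli-list genes per 10000 UMIs of a cell, by class and XY library, as the median with lines to the 10th and 90th percentiles over cells. In XY WT the median of Sox9+Amh0 cells (13.0 and 13.9) lies between that of Sox9-zero cells (1.14 and 0.975) and that of Sox9+Amh+ cells (76.6 and 53.5), and in XY -KTS KO it stays at 2.28 and 0.95.

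Within XY WT, Sox9+Amh0 cells had less of nearly every other Sertoli gene than Sox9+Amh+ cells of the same library. In edgeR's quasi-likelihood test on summed counts, with the library as a block and Benjamini-Hochberg adjustment over 16380 genes, 22 of the 24 list genes were lower and none higher, with a median log2 fold change of -1.69. Over all genes 9.46% were lower and 7.82% higher, and the median was -0.01. By DESeq2, 16 of the 24 list genes were called. Genes that go with Amh from cell to cell differ between classes cut on Amh, so this describes how the cells divide and is no separate evidence of a cell type. The largest fall on the list was in Col9a3, a chain of collagen IX, at 57.0 and 36.2 CPM against 415 and 216 (log2 fold change -2.82 ± 0.21 (SE), adjusted p = 4.4e-08). Ptgds, the prostaglandin D2 synthase, stood at 142 and 88.5 CPM against 1001 and 481 (-2.72 ± 0.21, adjusted p = 5.7e-08). Dhh, the hedgehog ligand of Sertoli cells, stood at 36.1 and 35.9 CPM against 220 and 158 (-2.46 ± 0.18). In each of these the class lay below Sox9+Amh+ cells in both libraries without overlap. Fgf9, the growth factor of the Sox9 loop, differed less, at 55.6 and 76.1 CPM against 99.4 and 144 (-0.99 ± 0.21, adjusted p = 0.0024). Dmrt1, needed to keep testis fate later in life, did not pass the test (-0.83 ± 0.29, adjusted p = 0.054), nor did Erbb4. Of the regulators upstream of Sox9 and Amh, Wt1 (0.08 ± 0.11), Gata4 (-0.24 ± 0.12) and Nr5a1 (-0.41 ± 0.14, adjusted p = 0.052) did not pass the test either.

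Promoter windows were read for the Sertoli genes because members of this list moved together and NR5A1 and SOX proteins act at such promoters. RefSeq windows (GRCm38.p6, 300 bases, 250 before and 50 after the gene start) existed for 17 of the 24 genes. They were searched on both strands for the letters AACAAT (SOX) and for AAGGTCA and CAAGGTC (NR5A1, overlapping motifs). Only Erbb4 held the SOX letters, 1 of 17 against 10.7% of all 32851 windows, and 2 of 17 held NR5A1 letters against 7.06%. The 2 windows with NR5A1 letters are shown with these letters in capitals, Ptgds at chr2:25469700-25469999 on the minus strand with the match 232 bases before the start, and Cst8, a cystatin gene, at chr2:148798589-148798888 on the plus strand with overlapping matches that begin 48 and 47 bases before the start.
Ptgds: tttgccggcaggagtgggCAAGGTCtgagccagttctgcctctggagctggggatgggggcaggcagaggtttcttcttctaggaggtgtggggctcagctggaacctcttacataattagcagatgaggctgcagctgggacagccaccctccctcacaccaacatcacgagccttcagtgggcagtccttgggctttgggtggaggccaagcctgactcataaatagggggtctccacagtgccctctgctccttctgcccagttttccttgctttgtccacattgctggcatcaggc
Cst8: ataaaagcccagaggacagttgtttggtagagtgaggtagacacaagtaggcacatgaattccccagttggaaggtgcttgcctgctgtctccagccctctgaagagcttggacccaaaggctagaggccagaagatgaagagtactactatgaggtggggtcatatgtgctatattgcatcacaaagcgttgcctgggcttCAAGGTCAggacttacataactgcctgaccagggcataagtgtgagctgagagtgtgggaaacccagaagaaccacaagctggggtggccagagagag
Cst8 stood at 240 and 110 CPM in Sox9+Amh0 cells and 694 and 303 CPM in Sox9+Amh+ cells (-1.61 ± 0.17, adjusted p = 2.6e-06). A match of letters is no measured binding site, and the other windows say nothing about either factor.

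Genes of earlier or other somatic states were higher in the Sox9+Amh0 cells of XY WT than in its Sox9+Amh+ cells. Of 9 genes of bipotential supporting cells, 4 rose and 1 fell, and of 15 pre-granulosa genes 9 rose and 1 fell (7.82% of all genes rose). The lists share 3 genes, Runx1, Sprr2d and Lgr5, so Runx1 and Sprr2d count in both. Sprr2d had the largest rise of all genes that the naming rule covers, at 34.4 and 98.9 CPM against 1.27 and 15.9 (log2 fold change 3.12 ± 0.38, adjusted p = 9.7e-06). Nr0b1, which encodes the repressor DAX1, rose from 44.7 and 62.2 to 80.8 and 111 CPM, and Runx1, an early supporting cell factor, from 29.1 and 58.6 to 49.8 and 97.0 CPM. Nr0b1 overlapped in neither library and rose by 0.73 ± 0.15, and Runx1 rose by 0.64 ± 0.14 within each library although the levels of the 2 libraries overlapped between classes. Emx2 and Lhx9, homeobox genes of the early gonad, were the 2 members of the upstream list that rose, by 1.14 ± 0.10 and 1.34 ± 0.15. Rspo1, which boosts WNT signalling, rose by 1.09 ± 0.11, from 19.1 and 28.8 to 49.9 and 59.2 CPM. Foxl2 stood at 0.222 and 2.25 CPM in the class and 0.529 and 0.475 CPM in Sox9+Amh+ cells. Fst was higher in the class, at 2.11 and 16.3 CPM against 0.21 and 5.77 CPM, yet far from its 509 and 528 CPM in the class of XX WT.

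Interstitial and surface genes moved the same way. Of 11 interstitial progenitor genes 9 rose, among them Nr2f2, from 28.2 and 27.3 to 85.3 and 60.8 CPM (1.27 ± 0.13, adjusted p = 1.3e-06) and Tcf21 (1.31 ± 0.19). Both encode transcription factors of the interstitium. Of 9 coelomic epithelium genes 6 rose, among them Upk3b (1.39 ± 0.19). Cyp11a1 and Star, genes of steroid synthesis, rose by 1.22 ± 0.16 and 1.22 ± 0.18, and Pax8 rose by 1.99 ± 0.27, from 0.899 and 3.24 to 3.88 and 13.8 CPM. Outside the lists, the largest rises were in Myl1, Taf7l, Etv2 and 6330411D24Rik, between 2.27 and 2.43, and the largest falls in Kazald1, Sox15 and Srgn, between -2.76 and -2.63. Etv2, an ETS factor, stood at 55.0 and 25.6 CPM in the class against 13.0 and 2.85 CPM. In all, 1281 genes rose and 1549 fell. The count of 2830 was 913 without XY WT replicate 1, 1872 without replicate 2, 1845 with at least 3 Sox9 UMIs required and 405 without the library block, where 10 Sertoli-list genes stayed lower and Ptgds, Fgf9 and Sprr2d did not pass.

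Against Sox9-zero cells of the same libraries, most Sertoli and supporting cell genes were higher in the Sox9+Amh0 cells of XY WT. Of the 24 Sertoli genes 20 were higher and none lower, with a median log2 fold change of 2.55, beside 13.2% higher and 13.5% lower (26.6% called) over all genes and a median of -0.03. Fgf9 had the largest rise among all genes that the naming rule covers, from 3.88 and 2.18 CPM to 55.6 and 76.1 (4.30 ± 0.26, adjusted p = 8.8e-10). Aard, a testis gene of unknown role, rose from 58.3 and 30.2 to 392 and 451 CPM (3.23 ± 0.20), and Dhh from 7.56 and 3.03 to 36.1 and 35.9 CPM (2.75 ± 0.21). Sox8 and Sox10 rose by 3.31 ± 0.35 and 3.64 ± 0.38, from under 1 CPM in each Sox9-zero sum. Of the 12 genes upstream of Sox9, 6 rose, among them Nr5a1 (1.58 ± 0.15), Gata4 (0.93 ± 0.12), Wt1 (0.75 ± 0.11), Gadd45g (1.29 ± 0.11) and Sry (2.29 ± 0.54, at only 0.888 and 1.78 CPM), and Lhx9 fell. Of the 9 supporting cell genes 8 rose, led by Lgr5 (4.15 ± 0.29). Of the 15 pre-granulosa genes 5 rose and 4 fell. DESeq2 called 18 of the 24 Sertoli genes. Genes that go with Sox9 from cell to cell differ between classes cut on Sox9. This comparison, in XY WT and in the mutants below, thus describes how the cells divide and is no separate evidence of a cell type.

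The Sox9-zero cells mix interstitial, endothelial, blood and other cells. They can include supporting cells without a captured Sox9 UMI, and held Amh at 24.8 and 5.29 CPM in XY WT. All 11 interstitial, 7 endothelial, 7 blood and 5 tested immune genes were lower in the class, and the 5 largest falls were in globin genes and the platelet gene Pf4. All 8 proliferation genes fell as well, with a median of -0.57. Outside the lists Lncbate6 and Rgn were among the largest rises. The count of 4365 genes fell to 2691 without XY WT replicate 1, to 1726 without replicate 2 and to 1068 without the library block, where 16 of the Sertoli genes stayed higher.

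In XY -KTS KO fewer Sertoli genes passed over its Sox9-zero cells. Of the 24 Sertoli genes 12 were higher and none lower, with a median of 1.34, beside 4.14% of all genes higher and 1.94% lower (6.07% called). Fgf9 rose from 2.50 and 4.44 to 24.6 and 16.8 CPM (2.54 ± 0.30, adjusted p = 2.1e-05). Mro, a gene switched on early in the testis, rose from 12.8 and 14.8 to 50.04 and 36.1 CPM (1.59 ± 0.16, adjusted p = 4.7e-06). Tesc, which encodes the calcium-binding protein tescalcin, rose from 4.37 and 2.91 to 32.9 and 18.6 CPM (2.76 ± 0.22), and the cystatin Cst9 from 0.969 and 0.750 to 11.1 and 13.7 CPM (3.82 ± 0.41). For each of these the class lay above Sox9-zero cells in both libraries. DESeq2 called 9 of the 24 Sertoli genes. Dhh stayed at 3 and 1 UMIs in the class (0.626 and 0.172 CPM) and did not pass (2.48 ± 1.51, adjusted p = 0.43). Of the upstream genes, Gadd45g (1.16 ± 0.11) and Zfpm2 rose and Emx2 and Lhx9 fell, while Nr5a1 (0.19 ± 0.20), Gata4 (0.11 ± 0.13) and Wt1 (0.08 ± 0.11) did not pass the test. Of the 9 supporting cell genes 6 rose, among them Nr0b1 (1.66 ± 0.18), Runx1 (0.91 ± 0.14) and Wnt6 (0.96 ± 0.17), and of the 15 pre-granulosa genes 6 rose and 3 fell. Fst was among those that rose, from 11.5 and 6.01 to 36.5 and 13.2 CPM (1.41 ± 0.19). Zfpm2, Emx2 and Lhx9 lost their calls without either library, and Runx1 and Wnt6 without replicate 1 (adjusted p 0.061 to 0.59).

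More cells of the class of XY -KTS KO than of its Sox9-zero cells carried UMIs of other lineages. Of its cells 45.3% and 43.7% had at least 3 UMIs over some list of another lineage (duct, endothelial, perivascular, immune, chondrogenic or neural crest), against 21.1% and 26.9% of Sox9-zero cells, and 29.6% and 11.6% had them over the duct list, against 6.14% and 5.0%. Most other libraries showed the same direction over any list. The shares were 42.2% and 38.1% against 27.6% and 17.3% in XX -KTS KO. They were 27.95% and 31.25% against 15.4% and 14.8% in XY +KTS KO, and 23.6% and 34.75% against 13.2% and 23.0% in XX +KTS KO. In XY WT they were 20.2% and 32.9% against 18.2% and 25.1%. XX WT was split, at 2.44% and 32.7% against 12.8% and 21.3%. The cut did not count Epcam among the duct genes. It is not specific to other lineages, since it left 832 of 1305 and 313 of 659 Sox9+Amh+ cells of XY WT. Col2a1, a cartilage collagen gene of the chondrogenic list, stood at 49.9 and 30.6 CPM in those cells and 1.64 and 0.558 CPM in the Sox9-zero cells of XY WT. A fixed number of UMIs is also reached more easily in deeper cells, and the class held a median of 16829 and 18797 UMIs against 11931 and 16013.5 in the Sox9-zero cells, whose part in these shares was not tested. Wfdc2, an epithelial secreted protein, at 188 and 61.3 CPM against 41.3 and 33.8 CPM, and the epithelial adhesion gene Epcam, at 68.8 and 45.7 CPM, made up most of the summed duct level of 263 and 113 CPM. Cdh16 and Lhx1, which mark duct and tubule, stood at 0 to 0.417 CPM in the class. Without all such cells, 8 Sertoli genes stayed higher and the share of the class was 3.47%. The count of 995 genes was 647 in that setting, 624 for cells of 8000 to 25000 UMIs, 308 without replicate 1, 610 without replicate 2, 1610 with at least 3 Sox9 UMIs and 103 without the library block, where 5 Sertoli genes stayed higher.

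The log2 fold change of class over Sox9-zero cells was then tested as a difference between genotypes. It was lower in XY -KTS KO than in XY WT for 4 of 24 Sertoli genes and higher for none. Over all genes it was lower for 1.43% and higher for 0.8% (2.23% called). The 4 Sertoli genes were Fgf9 (-1.76 ± 0.38, adjusted p = 0.017), Mro (-1.04 ± 0.23), Serpine2 (-1.33 ± 0.17) and Cyp26b1 (-1.12 ± 0.29, adjusted p = 0.046). Of the 12 upstream genes 4 were lower in this sense, namely Nr5a1 (-1.40 ± 0.24, adjusted p = 0.0032), Gata4 (-0.83 ± 0.17), Wt1 (-0.67 ± 0.15) and Emx2 (-0.56 ± 0.13). Emx2 changed sign, from 0.16 in XY WT to -0.40 in XY -KTS KO. Most of this difference for Nr5a1 lay in the class, which held 16.7 and 18.2 CPM in XY -KTS KO and 58.5 and 86.6 CPM in XY WT, beside 11.7 and 18.2 and 19.1 and 26.9 CPM in the Sox9-zero cells. Wt1 differed in the comparator, with 268 and 298 CPM in the Sox9-zero cells of XY -KTS KO and 118 and 180 in those of XY WT. For Mro both XY -KTS KO libraries lay above both XY WT libraries in the class as well, and the Sox9-zero cells held 12.8 and 14.8 CPM in XY -KTS KO and 3.49 and 5.58 in XY WT. Without XY -KTS KO replicate 2 the calls of Nr5a1, Gata4, Wt1, Emx2, Fgf9, Mro and Cyp26b1 were lost (adjusted p 0.077 to 0.37), Fgf9 also without XY WT replicate 2 (adjusted p = 0.12) and Mro without either XY WT library (adjusted p 0.094 and 0.13). Emx2 and Cyp26b1 were lost without XY -KTS KO replicate 1 too (adjusted p 0.07 and 0.083), and Cyp26b1 without XY WT replicate 1 (adjusted p = 0.12). The count of 365 genes fell with some libraries left out, and was 9 without the library block.

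**Figure D3:**
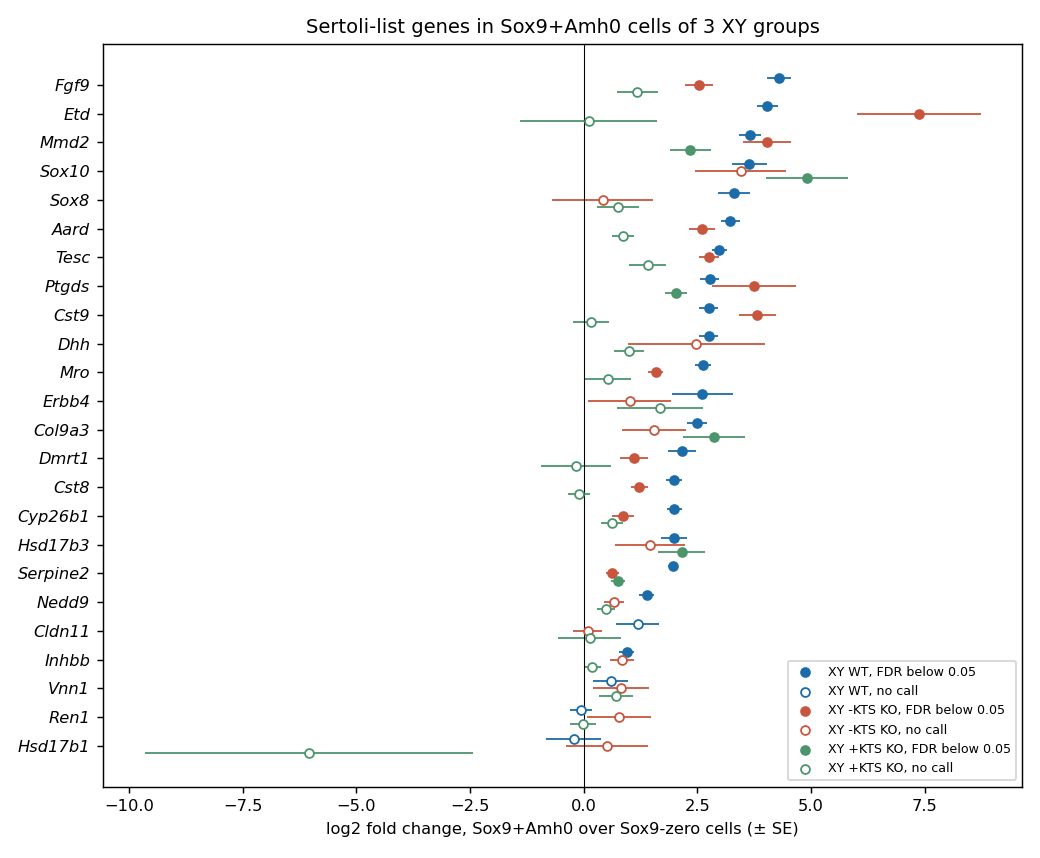
Log2 fold change of Sertoli-list genes in Sox9+Amh0 over Sox9-zero cells of the same libraries, with its SE, in XY WT, XY -KTS KO and XY +KTS KO. Filled points passed an FDR of 0.05 and open points did not, and 20, 12 and 6 of 24 genes passed, all to the right of 0. The classes were cut on Sox9, and Sox9+Amh0 cells summed to fewer UMIs in each mutant library than in either XY WT library.

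In XY +KTS KO, 6 of the 24 Sertoli genes were higher in the class (3 by DESeq2) and none lower, with a median of 0.73, beside 1.84% of all genes higher and 2.07% lower (3.91% called). Ptgds rose from 51.4 and 11.6 to 257 and 38.4 CPM (2.04 ± 0.24, adjusted p = 0.00049). The others were Col9a3, Hsd17b3, an enzyme of androgen synthesis, Mmd2, Serpine2 and Sox10, all at or below 20 CPM. Fgf9, at 8.73 and 6.24 CPM in the class, Mro at 1.07 and 2.40 CPM and Cst9 at 7.84 and 10.6 CPM did not pass. Among the upstream genes only Zfpm2 rose (0.46 ± 0.10), and among 9 supporting cell genes only Nr0b1 (0.71 ± 0.16, from 66.9 and 103 to 129 and 166 CPM). None of the 15 pre-granulosa genes passed in the edgeR test or by DESeq2, though 8 were higher at an unadjusted p under 0.05. Foxl2 stood at 50.6 and 11.1 CPM in the class and 29.1 and 7.31 CPM in its Sox9-zero cells.

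The libraries of this group did not match each other in the class. In replicate 2, which held 112 cells, 9 duct and tubule genes summed to 468 CPM, against 12.8 CPM in replicate 1 and 30.3 CPM in the Sox9-zero cells of replicate 2. Epcam stood at 235 CPM against 5.52 CPM, Gata3 at 50.9 against 1.07 and Pax2 at 28.3 against 1.43. At least 3 UMIs of duct genes other than Epcam were found in 12.5% of the class against 0%. Of the 9 duct genes 8 were called higher, and so were Cldn4, Mal, Cldn7 and Cldn3, among the largest rises of the comparison, which stood at 47.1 to 108 CPM in replicate 2 and 0.356 to 1.25 CPM in replicate 1. Without replicate 2, Lhx1 turned to -4.89 and Epcam to -0.43, and without cells of other lineages none of the duct genes was called, while 7 Sertoli genes were. The calls of Mmd2, Serpine2, Col9a3, Zfpm2 and Nr0b1 were lost without replicate 1 (adjusted p 0.67, 0.17, 0.11, 0.35 and 0.24), and that of Hsd17b3 without replicate 2 (adjusted p = 0.4). The count of 641 genes was 1448 with at least 3 Sox9 UMIs and 5 without the library block, where no Sertoli gene passed.

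The fold change of class over Sox9-zero cells was lower in XY +KTS KO than in XY WT for 2.38% of all genes. It was higher for 0.586%. Among the 24 Sertoli genes it was lower for 10 and higher for none. They were Fgf9 (-3.12 ± 0.46, adjusted p = 0.00064), Cst9 (-2.58 ± 0.40), Sox8 (-2.55 ± 0.55), Aard (-2.37 ± 0.30, adjusted p = 0.00018), Mro (-2.09 ± 0.45), Cst8 (-2.09 ± 0.29), Dhh (-1.75 ± 0.36), Tesc, Cyp26b1 and Serpine2. Nr5a1 differed again (-1.43 ± 0.21, adjusted p = 0.00064), with 74.3 and 52.1 CPM in its Sox9-zero cells beside 108 and 43.7 CPM in the class. Sox8 lost its call without XY +KTS KO replicate 1 or either XY WT library (adjusted p 0.065 to 0.18), Mro and Cyp26b1 without XY +KTS KO replicate 1 (0.16 and 0.082), Tesc without XY +KTS KO replicate 2 (0.11) and Dhh without XY WT replicate 2 (0.064). The count of 486 genes was 928 without XY +KTS KO replicate 1, 323 by DESeq2 and 5 without the library block.

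The class itself was then compared between genotypes. In XY -KTS KO, Sox9+Amh0 cells had far less of most Sertoli genes than Sox9+Amh0 cells of XY WT. Of 22 Sertoli genes tested 16 were lower and 1 higher, with a median log2 fold change of -3.21, beside 4.01% of all 12433 genes lower and 3.48% higher (7.49% called) and a median of -0.02. Cells of the class held fewer Sox9 UMIs in the mutant, so the genotypes differ in Sox9 level as well. In bulk sums of a class, fewer expressing cells and less RNA per cell cannot be told apart. Dhh stood at 0.626 and 0.172 CPM against 36.1 and 35.9 (adjusted p = 8.5e-05), on only 3 and 1 UMIs in the mutant, so no size of the fall is given. Ptgds stood at 3.54 and 1.20 CPM against 142 and 88.5 (-5.67 ± 0.88, adjusted p = 0.0016). Cst9 fell by 4.99 ± 0.57, Aard by 4.12 ± 0.33 and Fgf9 by 1.70 ± 0.27 on the log2 scale, without overlap of the libraries. Mro did not follow them, with 50.04 and 36.1 CPM against 24.1 and 34.3 (0.52 ± 0.31, adjusted p = 0.41), nor did Dmrt1 (-0.31 ± 0.42) or Cst8 (-0.67 ± 0.52). Cldn11, a tight junction claudin, was the member that rose, from 1.11 and 1.84 to 6.46 and 8.59 CPM (2.27 ± 0.55, adjusted p = 0.023), a call lost with any of the 4 libraries left out (adjusted p 0.073 to 0.16). Its Sox9-zero cells held 6.16 and 7.58 CPM.

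Among the upstream genes, Nr5a1 was the only member of 10 tested to change (-2.09 ± 0.38, adjusted p = 0.0041), while Wt1 (0.20 ± 0.29), Gata4 (-0.80 ± 0.29, adjusted p = 0.12) and Gadd45g (0.07 ± 0.31) did not pass. Of 15 pre-granulosa genes 6 rose and none fell. Wnt4, the ovarian WNT ligand, rose from 37.4 and 70.7 to 451 and 369 CPM (2.89 ± 0.50, adjusted p = 0.0031), beside 267 and 201 CPM in the Sox9-zero cells of the mutant. Cdkn1b, a cell cycle inhibitor, rose from 26.5 and 39.3 to 136 and 133 CPM (1.99 ± 0.22, adjusted p = 0.0002). Foxl2, at 1.25 and 0.172 CPM, and Fst, at 36.5 and 13.2 CPM, did not pass. Of 11 interstitial genes 6 rose, among them Nr2f2 (1.19 ± 0.30), Nr2f1 (2.46 ± 0.46) and Dlk1 (1.99 ± 0.35). Cdkn1a, another cell cycle inhibitor, rose by 2.24 ± 0.42. Of the cord genes, Ptch1, the receptor and target of hedgehog, fell by 1.70 ± 0.32, and so did Col4a1, Col4a2 and Lama1 of the basement membrane and the Notch target Heyl. Nr2f2 lost its call without XY -KTS KO replicate 2 or XY WT replicate 2 (adjusted p 0.24 and 0.23), and Ptch1 without replicate 1 of either (0.071 and 0.053).

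Outside the lists the largest rises in XY -KTS KO were in Shisa3, Sfrp2, Nupr1, Wfdc9 and Vsnl1. Shisa3, which dampens WNT and FGF receptors, stood at 26.1 and 38.8 CPM against 0.333 and 0.273 in XY WT, where it had 3 and 4 UMIs. Sfrp2, a secreted WNT modulator, stood at 103 and 44.3 CPM against 1.67 and 2.67, a call lost without XY -KTS KO replicate 1 or either XY WT library (adjusted p 0.068 to 0.076). The 5 genes that the naming rule gives for falls had almost no UMI in the mutant class, so the size and order of their falls are not given. Siglece had 0 and 0 UMIs against 253 and 530, Rhox8 0 and 1 against 322 and 1244, Etv2 1 and 0 against 496 and 375, Prss50 1 and 0 against 163 and 451 and Prss43 1 and 0 against 130 and 415. The count of 931 genes was 387 to 564 with any of the 4 libraries left out, lowest without XY -KTS KO replicate 2. The calls of Dhh, Ptgds, Aard, Fgf9, Cst9, Nr5a1, Wnt4 and Cdkn1b held in each of these fits.

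In XY +KTS KO the class also had less of the Sertoli list than in XY WT. Of 22 genes 13 were lower and none higher, with a median of -2.34, beside 1.91% of all genes lower and 1.58% higher. The Cst9 level was 7.84 and 10.6 CPM against 294 and 482 (-5.54 ± 0.61, adjusted p = 0.00034), the Tesc level 7.13 and 2.40 CPM against 245 and 208 (-5.49 ± 0.40) and the Mro level 1.07 and 2.40 CPM against 24.1 and 34.3 (-4.38 ± 0.46, adjusted p = 0.00037). Fgf9 fell by 3.19 ± 0.30, Dmrt1 by 3.89 ± 0.59 and Aard by 3.33 ± 0.32. Dhh fell by 1.90 ± 0.40 (adjusted p = 0.025). This call passed in 7 of the 11 alternatives and was lost, among others, without either XY WT library. Ptgds did not pass, with 257 and 38.4 CPM against 142 and 88.5 (0.25 ± 0.64, adjusted p = 0.86), and its 2 mutant libraries lay on either side of those of WT. Nr5a1 (-0.02 ± 0.35), Wt1 (-0.11 ± 0.29) and Gata4 (-0.48 ± 0.29) did not pass either.

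Pre-granulosa genes were higher in this class than in that of XY WT, 7 of 15, with Lgr5 lower. Over the 11 alternatives Irx3 and Axin2 passed in all, Wnt4 in 8, Lef1 in 7, Cdkn1b in 6 and Lgr5 in 5. Foxl2, the ovarian fate factor, stood at 50.6 and 11.1 CPM against 0.222 and 2.25 (4.42 ± 0.75, adjusted p = 0.0064), and Irx3 at 77.5 and 10.6 against 1.55 and 1.98 (4.54 ± 0.66, adjusted p = 0.0026). Both libraries of the mutant lay above both of WT, although replicate 1 lay well above replicate 2. Fst, at 151 and 20.2 CPM against 2.11 and 16.3, fell just short (3.10 ± 0.81, adjusted p = 0.054). Emx2 was the only upstream gene to rise, from 73.4 and 104 to 296 and 205 CPM (1.40 ± 0.25), a call lost without XY WT replicate 1 (adjusted p = 0.099). Of 10 immediate early and heat shock genes 2 rose, Egr1 (2.56 ± 0.64) and Fosb (3.11 ± 0.71), and the other 8 did not pass. Both calls were lost without XY +KTS KO replicate 1 or either XY WT library. Egr1 passed in 6 and Fosb in 8 of the 11 alternatives. The summed level of the list was 2875 CPM in replicate 1, while the 738 CPM of replicate 2 lay within the range of the other XY libraries. Its part in these results was not tested. Outside the lists, Foxd1, Plac8 and Cst12 had the largest rises besides Irx3 and Foxl2, and Spp1, which encodes osteopontin, fell from 564 and 740 to 13.5 and 15.4 CPM (-5.61 ± 0.36, adjusted p = 8.9e-06). Etd and Etv2 had 0 and 1 and 4 and 0 UMIs in the mutant class, against 169 and 499 and 496 and 375. The count of 434 genes was 168 without XY WT replicate 1, 218 without XY WT replicate 2 and 766 without XY +KTS KO replicate 2. Foxl2 lost its call without XY +KTS KO replicate 1 (adjusted p = 0.064), and Foxd1 and Cst12 lost theirs with 3 of the 4 libraries left out in turn (adjusted p 0.055 to 0.1).

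For Mro and Ptgds the levels of the mutants are given side by side, each having been compared with the same WT libraries. Mro stood at 50.04 and 36.1 CPM in XY -KTS KO and, for XY +KTS KO, 1.07 and 2.40, while Ptgds stood at 3.54 and 1.20 CPM and 257 and 38.4 CPM. The mutants were not tested against each other. Levels were also read in the cells of the class with the highest Sox9 counts, 5 UMIs or more, which numbered 272 and 581 in XY WT, 49 and 56 in XY -KTS KO and, for XY +KTS KO, 91 and 13. In these the Sox9 level was 721 and 723 CPM, 374 and 421 CPM, and 516 and 437 CPM. Dhh stood at 56.5 and 45.5 CPM in XY WT, 2.58 and 0.695 in XY -KTS KO and, for XY +KTS KO, 13.4 and 13.9. Aard stood at 699 and 615, 59.3 and 84.1, and 91.0 and 41.8 CPM. Fgf9 stood at 102 and 108, 67.1 and 43.1, and 22.4 and 0 CPM. These values are a description without a test, in cells that share a minimum Sox9 count and differ in Sox9 level. Nr5a1, at 90.6 and 108, 23.2 and 23.6, and 140 and 102 CPM, was lowest in XY -KTS KO, and Wt1 lay between 286 and 411 CPM in all 6 libraries.

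**Figure D4:**
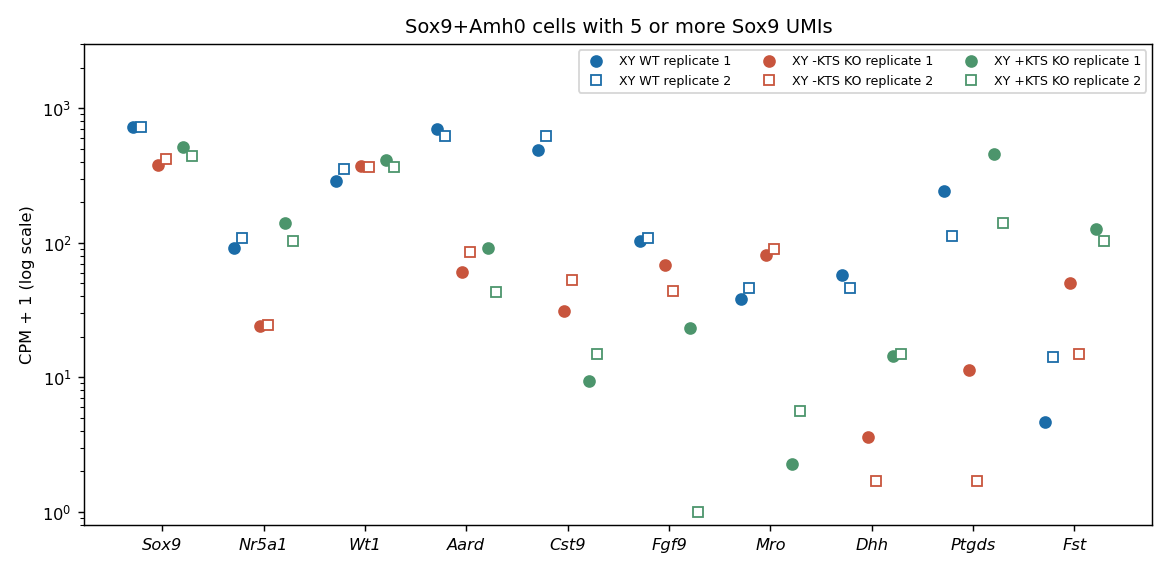
CPM plus 1 on a log axis for genes of Sox9+Amh0 cells with 5 or more Sox9 UMIs in the XY libraries, 1 point per library. Sox9 differs by less than 2-fold between libraries (374 to 723 CPM), while Dhh spans 56.5 to 0.695 CPM and Mro stands at 80.0 and 88.2 CPM in XY -KTS KO and 1.28 and 4.65 CPM in XY +KTS KO.

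In XX gonads the class held few cells, with fewer Sertoli transcripts than in XY WT. Its median cell held 2.52 and 2.08 Sertoli-list UMIs per 10000 in XX WT, against 13.01 and 13.95 in XY WT. The median was 2.28 and 0.95 in XY -KTS KO and, for XY +KTS KO, 5.13 and 1.83. XX WT thus lay within the range of the XY mutants. XX -KTS KO had 0.838 and 0.777, and XX +KTS KO 1.52 and 0.763. In XX WT, Dhh stood at 0 and 0.319 CPM, Fgf9 at 3.65 and 6.06 and Cst9 at 18.2 and 6.69 CPM, each below both XY WT libraries. Fst stood at 509 and 528 CPM, against 2.11 and 16.3 in the class of XY WT, and Wnt4 at 734 and 823 CPM, against 37.4 and 70.7. The XX WT Sox9-zero cells held Fst at 501 and 448 CPM. These levels are a description without a test, and the XX class is called by its rule only. Pax8 was raised in these cells, at 76.7 and 68.9 CPM against 5.04 and 9.56 CPM in XX WT Sox9-zero cells, a difference that was not tested. In XX -KTS KO against XX WT, 256 genes changed in the class (2.06% of 12433, with 0.603% higher and 1.46% lower). Of 15 pre-granulosa genes 5 fell, namely Foxl2, Fst, Lef1, Runx1 and Sprr2d, and Fst stood at 8.36 and 9.46 CPM (-5.81 ± 1.01, adjusted p = 0.012). Of the Sertoli list, Aard and Inhbb fell and Mro rose, from 0 and 2.55 to 14.8 and 13.5 CPM (2.85 ± 0.57, adjusted p = 0.024). Outside the lists, Ibsp, Smoc2, Cck, Wfdc10 and Wfdc13 had the largest rises, and Gm29521, Hsd17b13, Wfdc1 and Lypd1 were among the largest falls. These calls rest on 41 to 168 cells per library. The count was 1, 46, 53 and 30 without XX -KTS KO replicate 1, XX -KTS KO replicate 2, XX WT replicate 1 and XX WT replicate 2, and none of the calls of Foxl2, Fst and Mro held with a library left out.

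In XX +KTS KO against XX WT, 174 genes changed in the class (0.434% higher, 0.965% lower). Of the pre-granulosa list 4 fell and none rose, namely Fst, at 23.8 and 13.0 CPM (-4.87 ± 0.93, adjusted p = 0.026), Irx3, Sprr2d and Cdkn1b. Each of these 4 calls was lost with any of the 4 libraries left out (adjusted p 0.058 to 0.52), and those of Irx3, Sprr2d and Cdkn1b with at least 3 Sox9 UMIs required (0.051 to 0.21). The call of Cdkn1b was also lost in cells of 8000 to 25000 UMIs (0.054). No Sertoli gene passed in the edgeR test, beside 8 of 22 at an unadjusted p under 0.05 and 1 called by DESeq2. Aard (adjusted p = 0.06) was called lower in 5 of the 11 alternatives, by DESeq2, without the filter on low counts, in the depth window, with the replicate block and without XX +KTS KO replicate 1. Lum, Nefm, Actc1, Gm2694 and Mgam had the largest rises. The count was 8 without XX WT replicate 1, 6 without XX WT replicate 2 and 1 without XX +KTS KO replicate 2.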

How the data were processed

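Single-cell RNA libraries from 12 gonad samples were used as UMI counts per gene and barcode, which the authors made with Cell Ranger 6.0 against mm10 (per the submitters' notes) and deposited without normalization. Cells were kept and classed by the rule given above. Gene symbols were read from the feature tables, and 32158 of 32285 identifiers matched the mouse annotation used for positions. No doublet caller was run, and an alternative limited to cells of 8000 to 25000 UMIs leaves out the deepest barcodes.

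UMIs were summed per library and class (at least 10 cells), normalized by TMM, filtered with filterByExpr and tested with edgeR 4.0.16 in R 4.3.3 (quasi-likelihood test, Benjamini-Hochberg adjustment over all genes tested, FDR 0.05). Classes of a library were compared with the library as a replicate block, since they come from the same library. The class was compared between genotypes over 6 groups without a block. Sox9, Amh and the 4 germ gate genes were left out of the calls. Replicates 1 and 2 name separate libraries. Alternatives were DESeq2 1.42.0, RLE factors, no filter, at least 3 Sox9 UMIs, cells of other lineages left out, the depth window, the block and each library left out. Sums, shares and intervals (exact Clopper-Pearson) came from pandas 2.3.3, scipy 1.17.1 and numpy 2.4.6 under Python 3.11.15, and the fits were checked on simulated data. There, more calls than the FDR states fell on unchanged genes, and most of the smaller differences between genotypes were missed, so a gene that did not pass may still differ.

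Named were all genes of the lists and, for each comparison, the 5 largest rises and 5 largest falls with at least 20 CPM in the higher class or group and, within a genotype, the same direction in both libraries or, between genotypes, both libraries beyond both of the other. Results for some of these genes are not reported here. The class, its members and the lists were chosen with earlier results of these data known.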

Additional observations from a re-analysis of the deposited data

Results flagged for a closer look

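The values here are differences between genotypes, on the log2 scale, of the fold change of Sox9+Amh0 over Sox9-zero cells, and each passed the interaction test of the edgeR fit at an FDR of 0.05. In XY -KTS KO minus XY WT they were -1.40 for Nr5a1, -0.83 for Gata4, -0.67 for Wt1 and -0.56 for Emx2 among the genes upstream of Sox9, and -1.76 for Fgf9, -1.04 for Mro, -1.33 for Serpine2 and -1.12 for Cyp26b1 among the Sertoli genes. The fold change of Nr5a1 itself was 1.58 for XY WT and 0.19 for the mutant. Junb, an immediate early gene, differed the other way, by 0.87, from -0.38 for XY WT to 0.49 for the mutant.

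In XY +KTS KO minus XY WT they were -1.43 for Nr5a1, -0.78 for Gata4, -0.78 for Wt1 and -1.12 for Gadd45g among the upstream genes, and -3.12 for Fgf9, -2.55 for Sox8, -1.75 for Dhh, -2.37 for Aard, -2.09 for Mro, -2.58 for Cst9, -1.58 for Tesc, -1.21 for Serpine2, -1.37 for Cyp26b1 and -2.09 for Cst8 among the Sertoli genes. Both sets share the XY WT libraries. The Sox9-zero cells differed between genotypes too, with Wt1 at 268 and 298 CPM in those of XY -KTS KO and 118 and 180 CPM in those of XY WT, and the part of this comparator in the values was not tested.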

How the results depend on the processing

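In the comparisons within XY WT, 2830 genes separated Sox9+Amh0 from Sox9+Amh+ cells and 4365 from Sox9-zero cells, and 995 and 641 separated Sox9+Amh0 from Sox9-zero cells in XY -KTS KO and XY +KTS KO. With at least 3 Sox9 UMIs the count against Sox9+Amh+ cells became 1845 and those of the mutants 1610 and 1448. Without the filter on low counts the XY -KTS KO and XY +KTS KO counts became 1592 and 1431. The XY -KTS KO count fell to 647 without cells of other lineages and to 624 in the depth window. Without the library block the counts were 405, 1068, 103 and 5, so most calls of all 4 comparisons rest on the pairing of classes within a library. With a library left out they were 913 to 1872, 1726 to 2691, 308 to 610 and 521 to 579. The differences between genotypes, 365 and 486 genes, became 869 and 1061 without the filter, 9 and 5 without the block, and 134 to 421 and 356 to 928 with a library left out. The first was 662 with at least 3 Sox9 UMIs and the second 323 by DESeq2.

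Between genotypes, the class gave 931 genes in XY -KTS KO, 434 in XY +KTS KO, 256 in XX -KTS KO and 174 in XX +KTS KO. Without the filter these were 1698, 1317, 1000 and 805, and with a library left out 387 to 564, 168 to 766, 1 to 53 and 1 to 143. The XX counts were 85 and 83 with at least 3 Sox9 UMIs, and XX +KTS KO had 279 by DESeq2. Replicate numbers name separate libraries here, and the correlation of replicate differences between mutant and WT was 0.184, -0.295, 0.00769 and 0.0183 over 8197 genes, so they were not taken to pair the samples. With the replicate number as a block the counts were 920, 402, 300 and 167, and Lgr5 in XY +KTS KO lost its call (adjusted p = 0.057). The share of the class in XY -KTS KO was 2.22% with at least 3 Sox9 UMIs and 3.47% without cells of other lineages.

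Reversals are given here where the call was past the threshold in the reported fit or in the alternative, and many uncalled genes of low count crossed 0 as well. Without cells of other lineages, the log2 fold change over Sox9-zero cells turned to 0.32 for Cdh5, 0.061 for Pf4 and -0.42 for Sox6 in XY WT, to 0.10 for Pecam1 in XY -KTS KO, and to -0.087 for Epcam, -0.10 for Gata3, -0.49 for Krt18 and -0.016 for Wfdc2 in XY +KTS KO. This setting removes cells by some of these very genes. Without XY +KTS KO replicate 2 it turned to -0.43 for Epcam, -0.14 for Gata3, -0.15 for Krt18, -4.89 for Lhx1 and -0.37 for Wfdc2, and without replicate 1 these were 3.69, 4.15, 1.98, 4.15 and 3.64. Globin genes changed sign between libraries. In the genotype difference, Hba-a1 was -3.51 without XY -KTS KO replicate 2 and 2.51 without replicate 1, and Hba-x -3.58 and 2.77. In the class of XY -KTS KO against XY WT, Hba-a1 was -3.02 with at least 3 Sox9 UMIs, -3.53 without cells of other lineages, -2.93 in the depth window and -3.54 without XY -KTS KO replicate 2, Hba-x -3.29, -3.54, -2.60 and -3.78, and Hbb-y -3.43, -3.64 and -2.86 in the first 3 of these. Without XY -KTS KO replicate 1, Hba-a1 and Hba-x were 1.26 and 1.56. The cause was not tested. RLE factors kept 1513 results for named genes on their side of the threshold, moved 8 below it and 3 above it.

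The classes were small in the XX libraries, with 41 to 168 cells, and in XY +KTS KO replicate 2, with 112. A gene with a few UMIs in a class cannot be ranked against another.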

Other observations

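Among 6 genes that restrain or drive the cell cycle, Cdkn1a, which encodes the inhibitor p21, was higher in Sox9+Amh0 than in Sox9-zero cells of XY -KTS KO, at 94.2 and 97.8 CPM against 36.1 and 57.6 (log2 fold change 1.02 ± 0.16, adjusted p = 0.00051 in the edgeR fit). It was also higher in XY +KTS KO, at 112 and 140 CPM against 62.8 and 57.4 (0.93 ± 0.17, adjusted p = 0.0035), and did not pass in XY WT (-0.46 ± 0.18, adjusted p = 0.074). The difference between genotypes passed in both mutants, at 1.48 ± 0.24 (adjusted p = 0.0026) and 1.39 ± 0.25 (adjusted p = 0.003). All 4 of these mutant calls were lost without the library block (adjusted p 0.72 to 1.0). Without cells of other lineages the 2 XY +KTS KO calls were lost (adjusted p 0.32 and 0.092), and the call within XY -KTS KO was lost without its replicate 1 (adjusted p = 0.055).

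Of the steroid synthesis genes, Cyp11a1, which encodes the enzyme of the first step, stood at 28.9 and 55.4 CPM in the class of XY WT and 2.71 and 4.98 CPM in that of XY -KTS KO (-3.46 ± 0.51, adjusted p = 0.0013), a call that held with each of the 4 libraries left out. In XY +KTS KO it stood at 75.4 and 162 CPM and did not pass (1.40 ± 0.42, adjusted p = 0.094). Star, which carries cholesterol into mitochondria, was higher in XY -KTS KO, at 72.8 and 55.8 against 21.5 and 29.2 CPM (1.31 ± 0.30, adjusted p = 0.015), a call lost without XY -KTS KO replicate 1 (adjusted p = 0.14) or XY WT replicate 1 (adjusted p = 0.12).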
